A study of Mus musculus with 2 samples.

Results

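A set of 10 interferon response genes was followed in aged hematopoietic stem cells. They are the cytosolic RNA sensors Ifih1 (MDA5), Ddx58 (RIG-I) and Dhx58 (LGP2), the ubiquitin-like modifier Isg15 and its protease Usp18, the antiviral proteins Rsad2 and Bst2, the nucleic acid sensor Zbp1, the XIAP-associated factor Xaf1, and the receptor transporter Rtp4. They were taken by gene name from the non-control probes of both arrays, which gave 15 probes for the 10 genes of 22605 genes named on the array. All 10 rose well above background on 1 or both arrays, as 17234 genes did in all. The RNA came from bone marrow long-term hematopoietic stem cells (LT-HSCs) of C57BL/6J mice aged 2 years, sorted as CD150+CD48-Flt3-CD34- LSK cells and, by the methods, also CD41-. The p38αΔ/Δ mice carried CAG-CreERT2, in which a ubiquitous promoter drives a tamoxifen-dependent Cre, with both p38α (Mapk14) alleles floxed. They had received tamoxifen (TAM) about 1 year earlier. The controls, called p38α+/+ here and wild type in the labels, carried the same floxed alleles without Cre and were age-matched and also injected with TAM. So both groups had the floxed alleles and the drug, and only 1 had Cre. Each genotype was measured on 1 array, and the number of mice behind an array is not given in the sources used here.

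RIG-I and MDA5 bind viral or misplaced double-stranded RNA in the cytosol and signal through the mitochondrial adaptor Mavs to the kinase Tbk1 and the factors Irf3 and Irf7, which switch on interferon genes. Interferon then acts through its receptors and the Jak-Stat pathway, whose transcription factors bind the interferon-stimulated response element (ISRE) before genes such as Isg15, Rsad2 and the sensors themselves. In hematopoietic stem cells, interferon is known to draw cells out of dormancy, and stem cells hold a basal level of several interferon-stimulated genes without infection.

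The promoter stretches below show where the core of that element lies before or just after the first transcribed base of 5 members. It was searched on both strands as GAAANNGAAA, in windows from 250 bases before to 50 bases after the start in RefSeq (GRCm38.p6), and its bases stand in capitals. Letters run 5′ to 3′ along the gene's strand, and overlapping matches form 1 run of capitals.
Isg15 promoter, chr4:156200846-156200925, minus strand: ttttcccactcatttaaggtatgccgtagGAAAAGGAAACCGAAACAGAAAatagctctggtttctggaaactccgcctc
Bst2 promoter, chr8:71537555-71537634, minus strand: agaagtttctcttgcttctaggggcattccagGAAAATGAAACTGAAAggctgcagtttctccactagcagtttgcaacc
Rsad2 promoter, chr12:26456528-26456607, minus strand: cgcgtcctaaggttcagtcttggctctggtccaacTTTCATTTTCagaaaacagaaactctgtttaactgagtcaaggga
Ddx58 start, chr4:40239804-40239833, minus strand: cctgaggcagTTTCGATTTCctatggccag
Ifih1 start, chr2:62646206-62646235, minus strand: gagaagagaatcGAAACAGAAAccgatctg

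Windows were found for 6 of the 10 members, and 5 of those 6 held the ISRE core, against 3.44% of the 32851 windows of all genes. Isg15 had 3 overlapping matches, from 78 to 57 bases before the start. Bst2 had 2 overlapping matches, from 130 to 115 bases before it, and at least 2 matches were found in 0.225% of all windows. Rsad2 held its match from 120 to 111 bases before the start. In Ddx58 and Ifih1 the match lay after the start, at bases 2 to 11 and 32 to 41 counted from the first transcribed base as 0. The window of Xaf1 held no match. The gamma-activated sequence (GAS) TTCNNNGAA, an element of the interferon gamma response, was found in 1 of the 6, Bst2, where it overlapped the first ISRE match, against 8.3% of all windows. Dhx58, Usp18, Rtp4 and Zbp1 had no window in the table. Of the 27 other interferon-stimulated genes with a window, 13 held the ISRE core, and none of the 8 housekeeping genes with a window did. A match describes letters and is not a measured binding site.

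**Figure D1:**
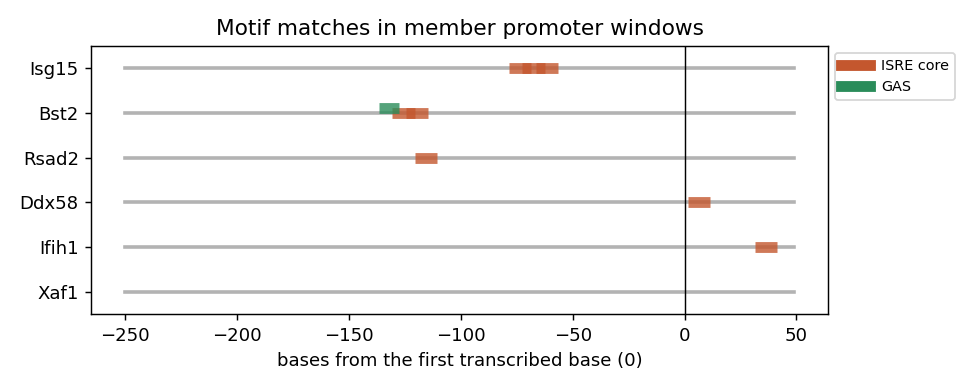
Positions of ISRE core and GAS matches in the 6 member promoter windows, in bases from the first transcribed base. Isg15, Bst2 and Rsad2 had their ISRE core upstream of the start, Ddx58 and Ifih1 just after it, and Xaf1 had no match.

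Levels below are log2 processed signals minus the array's own 75th percentile over non-control probes, so that 0 is the 75th percentile and 1 unit is 2-fold. Differences are the level on the array labelled p38αΔ/Δ minus the level on the p38α+/+ array. With 1 array per genotype no spread between mice could be measured and no test was made. The only error at hand is that of repeated spots within an array, taken from 306 repeated probes well above background on both arrays. The median SD of a spot's difference was 0.123 over all of them, and over 4 brightness classes of equal size it ran from 0.30 in the dimmest through 0.16 and 0.10 to 0.063 in the brightest. Each member probe was a single spot and is set beside the SD of its own class. The share of all genes beyond their spot SD is not given here, so a multiple of it does not rank a member. For a probe not well above background on 1 array, the fold used the higher of its own level and the array's floor. The floor is the dimmest level of any probe well above background on that array (−4.65 on p38α+/+ and −4.78 on the labelled p38αΔ/Δ array). Where the floor was used, the fold is a lower bound ("at least").

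At its brightest probe, each of 9 of the 10 members was lower on the array labelled p38αΔ/Δ and Zbp1 was higher, while 52.3% of the 17234 genes were lower. One of the 9, Xaf1, was lower by far less than its spot error. The members' median difference was −0.52, with a range from −1.50 to 0.54, and the median over all genes was −0.03, with an interquartile range from −0.38 to 0.33. Rtp4 and Usp18 were the 2 members at least 2-fold lower, a size that 6.75% of all genes passed, and no member was at least 2-fold higher, against 4.13% of all genes. Of the 15 member probes, 12 were lower and 3 higher, and 12 passed the background call on both arrays.

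**Figure D2:**
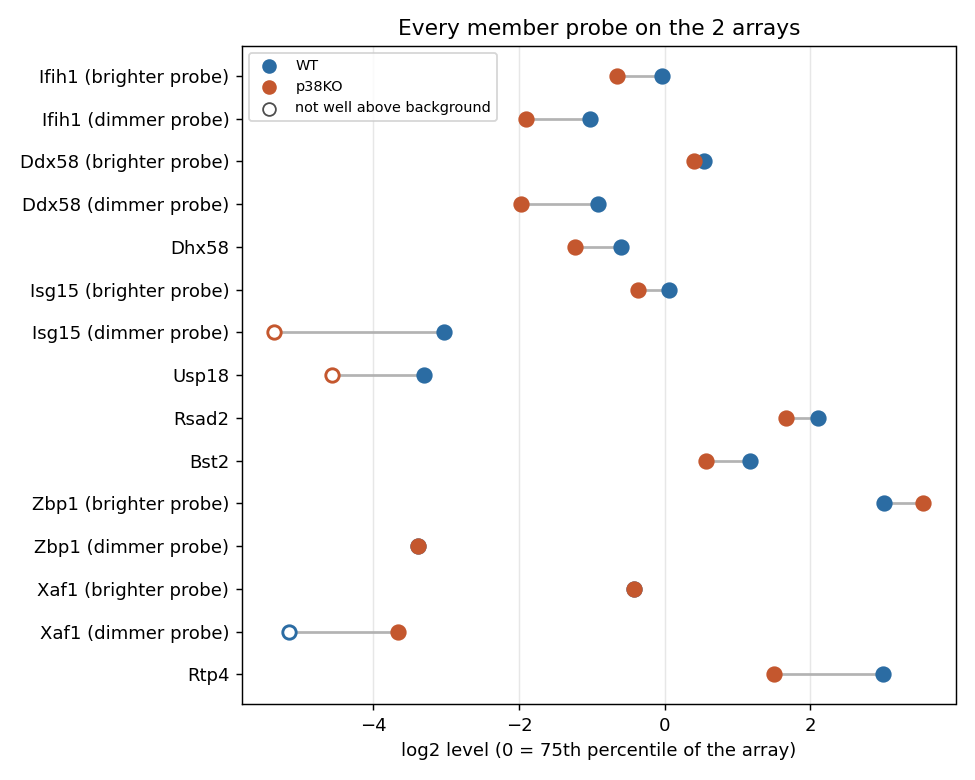
Levels of all 15 member probes on the p38α+/+ (WT, blue) and labelled p38αΔ/Δ (p38KO, orange) arrays, as log2 levels with 0 at the 75th percentile. Open points were not well above background, and the widest gap between 2 filled points is that of Rtp4, from 3.0 to 1.5.

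The 3 RNA sensors were lower on the labelled p38αΔ/Δ array at each of their 5 probes, by sizes that differed between probes of the same gene. Ifih1, the sensor of long double-stranded RNA, had a level of −0.04 on the p38α+/+ array and −0.65 on the labelled p38αΔ/Δ array at its brighter probe (chr2:62435507-62435566, minus strand, coordinates of the array design in mm9, as for all probes here). That is a difference of −0.62, or 1.53-fold lower, and 3.91 times the spot SD, and 14.5% of all genes had a lower difference. Its dimmer probe, which starts 547 bases away, went from −1.02 to −1.90, a difference of −0.88 or 1.84-fold lower. The 2 Ifih1 probes thus had the same direction, and the brighter one showed the smaller gap.

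Ddx58, the sensor of RNA with a 5′ triphosphate, gave the widest disagreement in size among the sensors. Its brighter probe (chr4:40151893-40151952, minus strand) read 0.55 on the p38α+/+ array and 0.40 on the labelled p38αΔ/Δ array, a difference of −0.14 and 1.44 times the spot SD. The dimmer probe (chr4:40151133-40151192), starting 760 bases from it, read −0.91 and −1.97. This difference of −1.06, or 2.09-fold lower, was 6.75 times the spot SD, so the brighter probe alone puts Ddx58 near the middle of all genes, with 41.5% of them having a lower difference, and the dimmer one past 2-fold. Dhx58 encodes the sensor family member without the signalling domain, known to modulate the other two. Its single probe (chr11:100556271-100556330, minus strand) read −0.59 and −1.24, a difference of −0.64 or 1.56-fold lower, which was 4.08 times the spot SD. A lower difference was found in 13.6% of all genes.

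The ISG15 system was lower at each of its 3 probes. Isg15 is the ubiquitin-like protein that is joined to other proteins during an interferon response, and Usp18 removes it and also holds back signalling at the interferon receptor. The brighter Isg15 probe (chr4:155573649-155573708, minus strand) read 0.06 on the p38α+/+ array and −0.36 on the labelled p38αΔ/Δ array, a difference of −0.42, or 1.34-fold lower, and 4.17 times the spot SD. Of all genes, 22.8% had a lower difference. The dimmer Isg15 probe read −3.03 and, on the labelled p38αΔ/Δ array, −5.36, which was not well above background, so it was at least 3.36-fold lower there. The array design places only 20 bases of this 60-base probe on the genome (chr4:155573533-155573552).

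Usp18 had 1 probe (chr6:121220874-121220933, plus strand), with a level of −3.31 on the p38α+/+ array and −4.57 on the labelled p38αΔ/Δ array, where it was not well above background. The processed signals were 14.5 and 4.85. As −4.57 lies above the floor of −4.78, the 2.40-fold lower level is as measured and not a bound. This call rests on a dim probe, and with another background correction (normexp) the difference was 0.02.

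Among the antiviral effectors, Rtp4 had the largest difference of any member at a brightest probe. Rtp4 is an interferon-stimulated gene whose product escorts receptors to the cell surface and is also known as an antiviral factor. Its probe (chr16:23613668-23613727, plus strand) read 3.0 on the p38α+/+ array and 1.5 on the labelled p38αΔ/Δ array, from processed signals of 1145 and 325. The difference was −1.50, or 2.83-fold lower, and 23.7 times the spot SD at that brightness. A lower difference was found in 2.80% of all genes. Across the other settings tried it stayed between −1.50 and −1.43.

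Rsad2 encodes viperin, which makes a chain-terminating nucleotide against viral polymerases. It read 2.10 and 1.66 (chr12:27127859-27127918, minus strand), a difference of −0.44, or 1.36-fold lower, and 6.94 times the spot SD. Bst2, or tetherin, holds budding virus at the cell surface. It read 1.17 and 0.57 (chr8:74058603-74058662, minus strand), a difference of −0.60, or 1.52-fold lower, and 6.00 times the spot SD. Of the 3 single-probe effectors, Rtp4 alone was past 2-fold, and each differed by more than the spot error. Lower differences than those of Rsad2 and Bst2 were found in 21.8% and 15.0% of all genes.

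Zbp1 and Xaf1, the members tied to cell death, were not lower beyond spot error at any probe. Zbp1 binds Z-form nucleic acids and can start necroptosis through Ripk3 and Mlkl. Its brighter probe (chr2:173039307-173039366, minus strand) read 3.01 on the p38α+/+ array and 3.55 on the labelled p38αΔ/Δ array, a difference of 0.54, or 1.45-fold higher. Its dimmer probe (chr2:173032258-173032317, minus strand), starting 7049 bases away, read −3.39 on both arrays, a difference of 0.01. The probes of Zbp1 therefore did not share the higher level.

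The brighter Zbp1 probe differs from the other 14 member probes in its sequence, whose first 30 bases are shown because near copies of the 60-base probe recur elsewhere.
Zbp1 brighter probe, bases 1 to 30: caagctggtcttgaacccacagagatcttc
A search of the 32851 promoter windows, on both strands, for alignments of at least 40 bases with at least 75% identity found near copies in 38 windows of 31 other genes. The same search found 0 for each of the other 14 member probes. Whether transcripts other than Zbp1 reach this spot was not tested, so its level is given as the signal of the probe.

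Xaf1 is a partner of the apoptosis inhibitor Xiap and an interferon-stimulated gene. Its brighter probe (chr11:72122169-72122228, plus strand) read −0.42 on both arrays, with a difference of 0.00 to 2 decimals and 0.0256 times the spot SD. Its dimmer probe (chr11:72127175-72127234, plus strand), starting 5006 bases away, had −5.16 on the p38α+/+ array, too dim for the background call, and −3.67 on the labelled p38αΔ/Δ array, which makes it at least 1.98-fold higher there. Unlike the sensors, Xaf1 was thus level at its brighter probe, and higher only at a dim one with processed signals of 4.01 and 9.06.

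**Figure D3:**
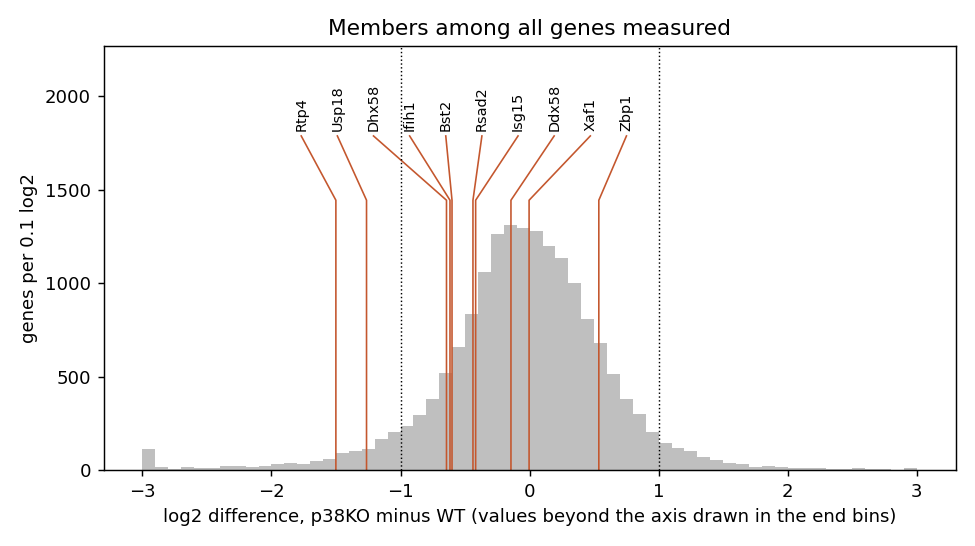
Distribution of the log2 difference (labelled p38αΔ/Δ, p38KO, minus p38α+/+, WT) over 17234 genes, with the 10 members at their brightest probes marked by lines; dotted lines mark 2-fold. Rtp4 and Usp18 lie past 2-fold lower, 5 members lie between −0.64 and −0.42, and Zbp1 lies at 0.54.

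The genes that act before and after the members were counted from lists named for their roles. Of 22 adaptors and kinases of the sensor pathways, 12 were lower and 10 higher, with a median difference of −0.05. Irf7, the interferon-inducible factor that amplifies interferon transcription, was the 1 gene of them past 2-fold. Its single probe read −0.59 on the p38α+/+ array and −3.95 on the labelled p38αΔ/Δ array, a difference of −3.36, or 10.3-fold lower, and −1.13 with normexp. Mavs, the adaptor to which both sensors signal, read −1.42 and −1.10, a difference of 0.32, and the death-domain adaptor Tradd read 0.21 and −0.63, a difference of −0.83. The median of these genes was close to that of all genes, and Irf7 stood apart from the other 21.

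Enzymes and proteases of ISG15 conjugation were split in direction at their brightest probes. Of 6 measured, 3 were lower and 3 higher, with a median of −0.01 and none past 2-fold. The 3 higher genes, Herc6, Usp16 and Trim25, each had a second probe that was lower, with differences of −0.11, −0.22 and −0.03. Ube2l6, the E2 enzyme for ISG15, had a difference of −0.26, and Herc6, the mouse E3 ligase, had 0.12. Ube2e2 had −0.48, and Trim25, an E3 ligase that also modifies RIG-I, had 0.26. Of 8 interferon ligand genes listed, 6 (Ifnb1, Ifna2, Ifna4, Ifnk, Ifne and Ifng) were not well above background on either array, Ifnl2 had no named probe, and Ifnl3 had a difference of 0.15.

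The 19 interferon receptor and Jak-Stat genes had a median of −0.20, with 12 lower, 7 higher and none past 2-fold. Tyk2, the kinase bound to the type I receptor, had the lowest difference of them, −0.80 at a dim probe, and −0.06 with normexp. Ptpn6, a phosphatase of this pathway, had −0.75, the lambda receptor chain Ifnlr1 had 0.65 and the inhibitor Socs1 had 0.60. The 9 genes of the Zbp1 death pathway had a median of −0.45, with 7 lower and 2 higher. Fadd, the adaptor of caspase-8, was 2.32-fold lower, from 0.94 to −0.28, with a difference of −0.91 under normexp. Casp6 had a difference of −0.61. Mlkl, the executor of necroptosis, read 3.12 and 3.97, a difference of 0.85, and Ripk3 had 0.13. Mlkl was thus higher, while most of the death pathway list was lower. Zbp1 was higher by its brighter probe, which has near copies elsewhere, but not by its dimmer one (0.01).

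Of the 6 partners of Rsad2, Xaf1 and Bst2, 5 were lower, with a median of −0.39. Cmpk2, the neighbour of Rsad2 that makes its nucleotide substrate, read 1.81 and 1.00, a difference of −0.81, and the inhibitor of apoptosis Birc3 had −0.72. Birc2, its relative, had 0.28. Of 35 other interferon-stimulated genes measured, 29 were lower and 6 higher, with a median of −0.45, close to that of the members. In that list 6 were at least 2-fold lower, against the 6.75% of all genes given above: Ifit3 by at least 7.21-fold, Cxcl10 by 5.25-fold at its brighter probe, Ifit1 by 2.41-fold, Oas3 by 2.25-fold, Tap1 by 2.24-fold and Epsti1 by 2.00-fold. With normexp all 6 were still lower but none was past 2-fold, with differences from −0.97 for Oas3 to −0.25 for Ifit1, and the dimmer Cxcl10 probe had a difference of 0.28. The highest differences were those of Sp100, 0.58, and Iigp1, 0.45, whose second probes had −0.22 and −1.25. Of 11 housekeeping genes, 9 were lower, with a median of −0.15, from −0.47 for Actb and −0.32 for Pgk1 to 0.01 for Gusb and 0.02 for Sdha.

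**Figure D4:**
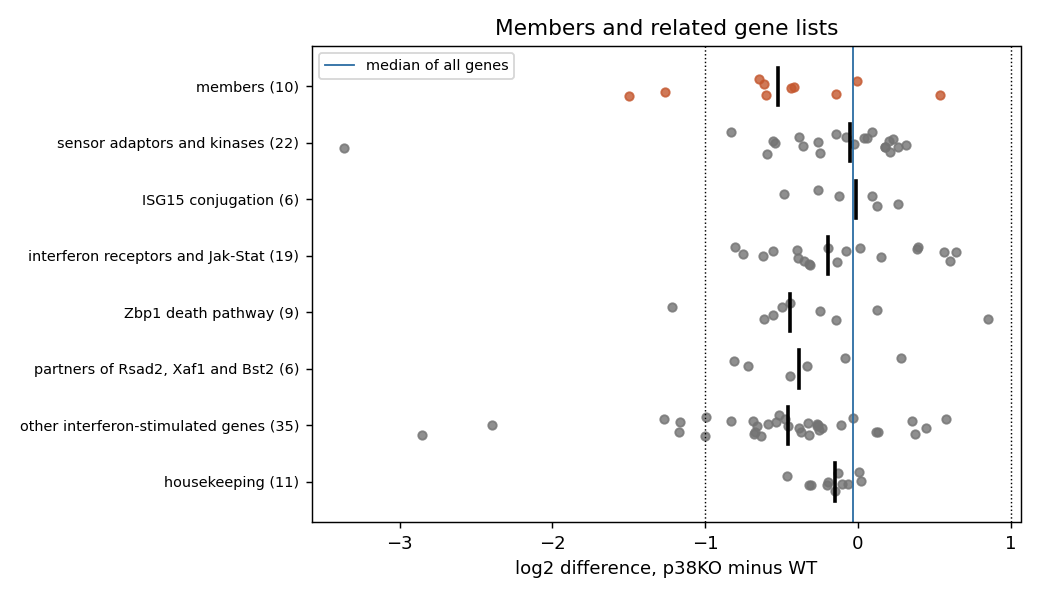
Log2 difference (labelled p38αΔ/Δ, p38KO, minus p38α+/+, WT) of each gene at its brightest probe, by list (without the ligands), with the number of genes measured; thick bars are list medians, dotted lines mark 2-fold and the blue line the median of all genes. The members and the other interferon-stimulated genes have medians of −0.52 and −0.45.

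The arrays also differed in ways that touch these results. Mapk14, the gene deleted by design, differed by less than the spot SD of its brightness class at its brighter probe (2.34 and 2.31, a difference of −0.04) and at its other (−0.05). Whether these probes lie in the deleted part is not given, so on these arrays the gene does not check the labels, and every direction here rests on them. The study assayed the deletion itself by genomic PCR on blood cells of such mice. Of 11 LT-HSC markers, each well above background on both arrays, 10 were lower, with a median of −0.54, a lowest difference of −1.44 for Mecom, and a summed level, in multiples of the array's 75th percentile, of 144 on p38α+/+ and 114 on the labelled p38αΔ/Δ array. The genes of antigens that the gate excludes, Cd34, Flt3 and Cd48, were each detected on both arrays, with differences of −0.15, 0.36 and 1.37. Markers of some other cells were mostly higher, although LSK cells are lineage-negative and the sort is meant to remove mature blood cells. All 9 markers of B and plasma cells were higher (summed level 4.03 and 19.3, with Ms4a1 and Ebf1 not well above background on p38α+/+), and without Jchain the other 8 summed to 2.90 and 4.08. Of 8 neutrophil markers 7 were higher (6.93 and 21.4, with Mmp8 not well above background on p38α+/+), and without S100a9 the other 7 summed to 3.18 and 6.26. Of 8 markers of plasmacytoid dendritic cells 6 were higher and 2 lower (27.8 and 33.2, each well above background on both arrays). Without Siglech the other 7 summed to 2.88 and 4.26. Of 7 markers of T and NK cells 6 were higher (17.5 and 23.9, with Cd3g not well above background on either array). Without Nkg7 the other 6 summed to 5.82 and 9.39. Monocyte markers were 3 lower and 3 higher (30.3 and 34.8, with Ccr2 not well above background on either array and no named probe for Ly6c2), megakaryocyte markers 3 lower and 3 higher (48.6 and 42.4), and the erythroid markers measured 2 lower and 3 higher (3.28 and 3.29). The part of these in the members' differences was not tested, and in RNA of sorted cells in bulk, fewer cells of a type and less RNA per cell cannot be told apart.

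**Figure D5:**
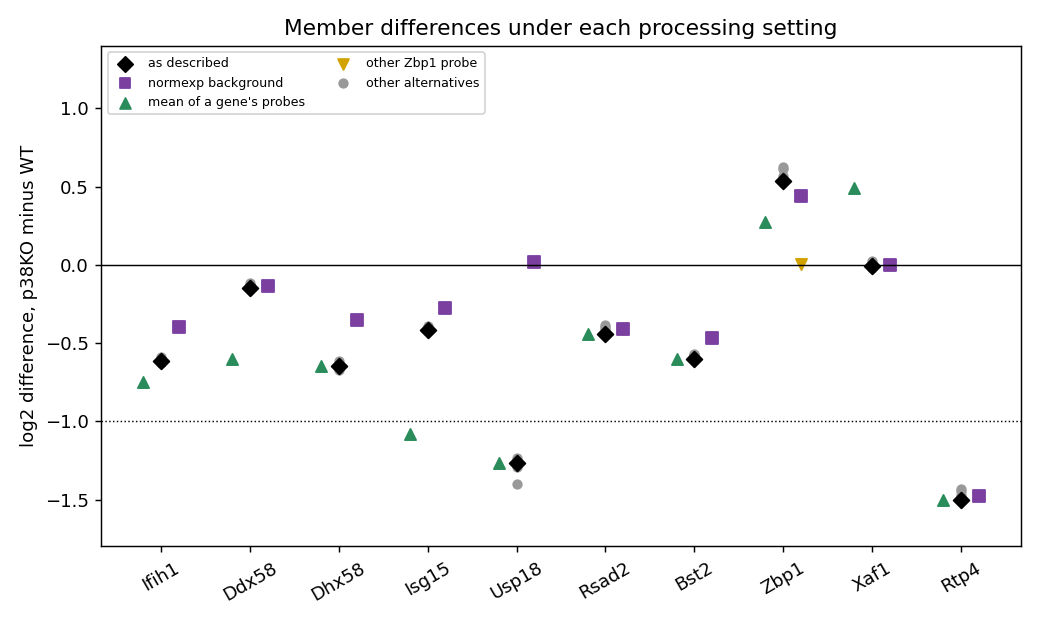
Log2 difference (labelled p38αΔ/Δ, p38KO, minus p38α+/+, WT) of each member as described (black) and under the alternative settings tried. Rtp4 lay between −1.50 and −1.43, Usp18 was at 0.02 with normexp, and Zbp1 was at 0.01 by its other probe.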

How the data were processed

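The RNA was hybridized to 1-colour Agilent arrays of a single slide. The authors deposited scanner files whose processed signal is a background-subtracted intensity per spot (Agilent Feature Extraction 11.5.1.1, per the labels). They also deposited a table of log2 values for 35795 probes, which equals the log2 signal minus a constant per array (7.16 and 6.84, SD at most 0.001, column medians −0.79 and −0.79). It lists 12 of the 15 member probes.

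Outlier spots were left out, spots of a probe averaged as log2, and the 75th percentile over 55662 non-control probes subtracted. A probe was called well above background where at least 50% of its spots were so flagged. This held for 67.9% of probes on p38α+/+ and 69.0% on the labelled p38αΔ/Δ array. No spot was saturated. A gene's value was that of its probe with the highest mean level, and 31852 probes were named by symbol, synonym or accession in the RefSeq table (GRCm38.p6). Genes named in the text were every member, and from each list those past 2-fold and up to 2 with the lowest and 2 with the highest differences; the members and lists were chosen with earlier results of these data known. Calculations used Python 3.11.15, limma 3.58.1 and blastn 2.17.0, and were tested on simulated data. The alternatives were normexp (offset 50), quantile, median or loess (span 0.3) scaling, the percentile over detected probes, the authors' values, the mean of a gene's probes, only probes detected on both arrays, no floor, and outlier spots kept.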

Additional observations from a re-analysis of the deposited data

How the results depend on the processing

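The members' median difference and their counts held their direction under all 10 alternatives and 1 added after the data were seen, the dimmer probe for Zbp1. In each, 8 or 9 members were lower, of 9 measured with the authors' values and with only probes well above background on both arrays. The added alternative could not change the median or the count, as Zbp1 stayed above 0 and highest. Leaving out the floor could not either, as no member's brightest probe used it. With normexp the median was −0.31 against 0.05 for all genes, and 1 member, Rtp4, was past 2-fold. The count was also 1 with the authors' values and with only probes well above background on both arrays, in both of which Usp18 had no value. Usp18 changed sign with normexp, to 0.0185; the cause was not tested. Ddx58, Isg15 and Xaf1 moved to −0.60, −1.08 and 0.49 when all probes of a gene were averaged, where Iigp1 changed sign, to −0.40. Genes at least 2-fold lower and higher numbered 125 and 50 with normexp, against 1164 and 711. No paired analysis was possible because each genotype has 1 array. For the same reason no replicate could be left out. Where the floor was used, a dim probe bounds but does not measure a fold, and the Usp18 fold is not a bound.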
